A study of Mus musculus with 6 samples.

Results

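The cytochrome P450 genes were examined in leg muscle of mouse fetuses with and without *SYISL*. The members were all protein-coding genes of GENCODE release M21 whose symbol follows the P450 pattern (Cyp, family number, subfamily letter, gene number) and that had at least 10 counts summed over the 6 samples. Of 94 P450 genes with such a symbol, 49 met this limit, of 56262 genes listed in all. Of the 45 others, 27 had no count and 18 had 1 to 9 counts. The limit used no difference between genotypes. *Cyp4f37* and *Cyp4f14*, with 10 counts each, lay just inside it and *Cyp11b1*, with 9 counts, just outside.

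P450 enzymes are haem monooxygenases that insert an oxygen atom into lipids, steroids, vitamins or foreign compounds. Those in the endoplasmic reticulum take their electrons from P450 oxidoreductase (*Por*), and those in mitochondria from ferredoxin (*Fdx1*) and its reductase (*Fdxr*). Families 1 to 3 are best known for handling foreign compounds in liver, family 4 for oxidising fatty acids at the chain end, and the remaining families for making or degrading sterols, steroid hormones, bile acids, vitamin D and retinoic acid, while several family 2 and 4 enzymes act in epidermis.

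The study sequenced RNA of whole leg muscle at embryonic day 18.5 from 3 wild-type (WT) fetuses and 3 fetuses with knockout (KO) of *SYISL*, a long noncoding RNA encoded within an intron of *Synpo2*. Parents of a litter had the same genotype, so KO fetuses developed in KO dams, and the effects of the fetal and the maternal genotype cannot be told apart here. The KO line was made earlier by the authors, and the WT mice came from the animal centre of their university. Litter and sex are not given in the sources used here, so p-values measure only the spread between these samples. The annotation holds no gene named *SYISL*, and its deletion was not checked.

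Each sample held 82054811 to 102233181 counts, and a count of 0 allows a level of up to 0.0293 to 0.0366 CPM (counts scaled to the library size), for counting error only. Levels below are CPM scaled with TMM factors, given as mean ± SD of 3 samples. Apart from shares of summed CPM, levels of different genes are compared only as CPM per kb of exon. Fold changes are KO over WT on the log2 scale with their standard error (SE), from the quasi-likelihood test of edgeR, adjusted by the Benjamini-Hochberg method over 22071 genes. A gene was called a DEG, and is said to have risen or fallen, where the fold change exceeded 1.5 with an adjusted p below 0.05. Because the RNA is of bulk tissue, fewer cells of a type and less RNA per cell cannot be told apart.

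Of the 49 P450 genes, 35 passed the filter on low counts. Of these, *Cyp2g1* had at least 10 counts only in KO samples, and *Cyp2b10* and *Cyp4x1* only in WT samples. The test called 14 of these (40.0%), against 16.7% of all genes tested. *Cyp1b1*, *Cyp2d22*, *Cyp2g1*, *Cyp2u1*, *Cyp11a1* and *Cyp27a1* rose, which is 6 genes where 8.31% of all genes tested rose. *Cyp2ab1*, *Cyp2b10*, *Cyp2b19*, *Cyp2s1*, *Cyp2w1*, *Cyp3a13*, *Cyp4f39* and *Cyp4x1* fell, which is 8 genes where 8.39% of all genes fell. On the adjusted p alone, 21 passed, 11 of them higher and 10 lower, against 45.0% of all genes in either direction. The 3 WT and 3 KO values did not overlap in 22 of the 35 genes (62.9%), against 55.9% of all genes. The median log2 fold change over the 35 genes was 0.04, and over all genes it was -0.0041 with an interquartile range of -0.21 to 0.24. With an adjusted p below 0.05, changes beyond 2-fold were 3 rises and 7 falls, against 774 rises and 1269 falls among the 22071 genes tested.

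**Figure D1:**
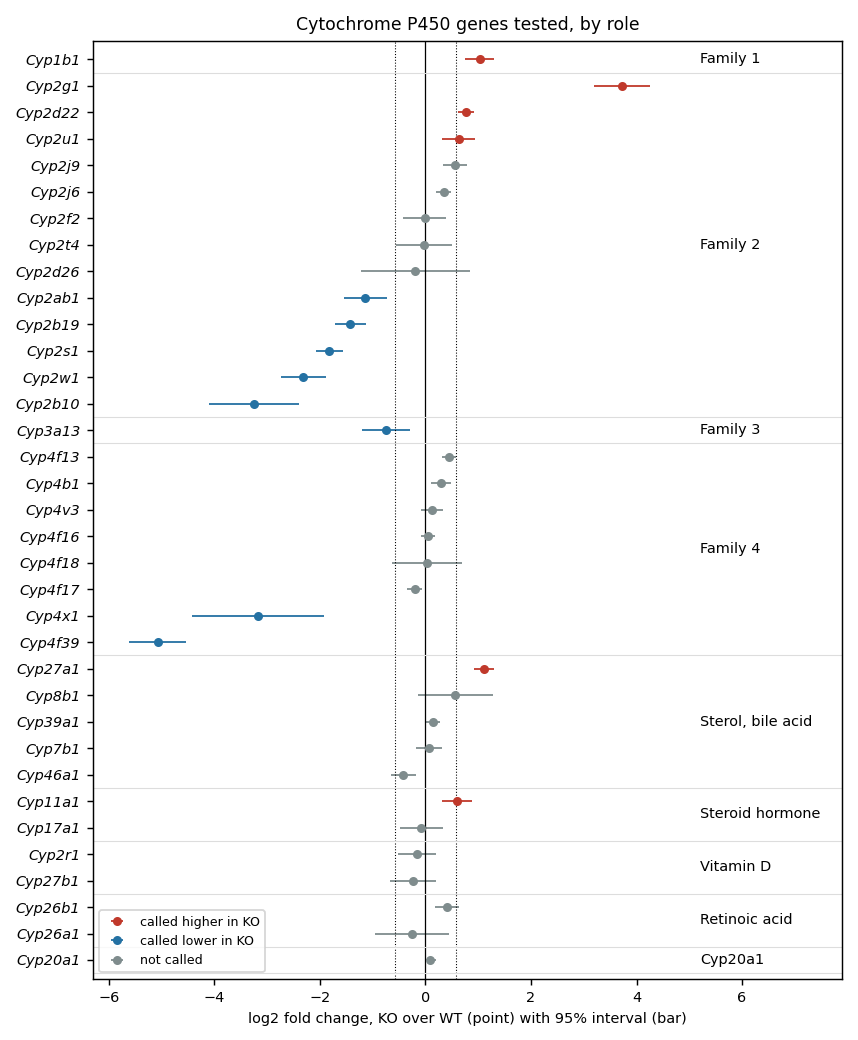
Log2 fold change (KO over WT) of the 35 P450 genes tested, grouped by role, with points for the estimates and bars for 95% intervals, dotted lines at the fold limit of 1.5, and colour for genes called higher (red) or lower (blue). Values run from -5.07 for *Cyp4f39* to 3.73 for *Cyp2g1*, and both sterol and steroid groups hold 1 gene called higher each.

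The calls are described by role, and differences between roles were not tested. Family 2 had 19 members, 13 tested, of which 3 rose and 5 fell. Family 4 had 12 members, 8 tested, of which 2 fell and 0 rose. The only member of family 3, *Cyp3a13*, fell, and the only tested member of family 1, *Cyp1b1*, rose. Among the 5 sterol and bile acid genes, all tested, 1 rose, and among the 3 steroid hormone genes, 2 tested, 1 rose. Of the 3 vitamin D genes and the 3 retinoic acid genes, 2 each were tested and 0 called. *Cyp20a1*, an enzyme without a well-known substrate, was tested and not called. The 45 genes under the limit are not described further.

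In CPM summed over the 49 genes, the WT samples had 560, 755 and 620 and the KO samples 452, 419 and 419, so the groups did not overlap (645 ± 99.6 in WT and 430 ± 19.2 in KO). *Cyp2b19* alone made up 57.4% of this sum in WT and 32.1% in KO, a share of CPM that is not scaled to exon length. Without it, the WT samples had 255, 297 and 273 and the KO samples 302, 288 and 287, with WT replicate 2 inside the KO range.

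Per kb of exon, *Cyp2b19* had the highest level of the family in both genotypes, with 88.8 ± 18.9 CPM per kb in WT and 33.1 ± 2.65 in KO. *Cyp26b1* (mean over both genotypes 16.0 CPM per kb) and *Cyp20a1* (15.3) followed, and their WT values, 13.7 ± 1.88 and 14.8 ± 0.546, lay within their spread. The next levels were those of *Cyp2d22* (5.84), *Cyp39a1* (5.05), *Cyp4f39* (4.97), *Cyp2w1* (4.42), *Cyp27a1* (4.21), *Cyp2j6* (3.60) and *Cyp4f16* (3.38). Several genes changed place between genotypes. *Cyp4f39* was at rank 4 of the family in WT and 25 in KO, *Cyp2w1* at 5 and 14, and *Cyp27a1* at 11 and 5.

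**Figure D2:**
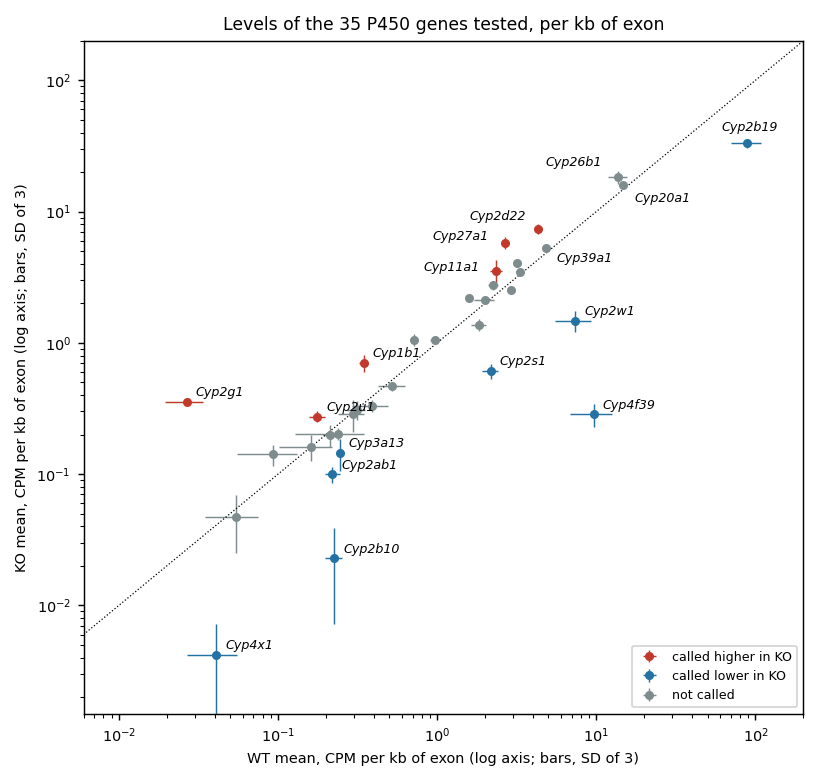
Mean level of each tested P450 gene in WT (x axis) and KO (y axis), as CPM per kb of exon on log axes, with bars for the SD of 3 samples and a dotted line at equal levels. *Cyp2b19* lies at the top right below the line, and *Cyp4f39*, *Cyp2b10*, *Cyp4x1* and *Cyp2w1* lie far below it, while *Cyp2g1* lies far above.

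Promoter sequence was taken from the 250 bases before the RefSeq start of each gene (GRCm38.p6) and was found for 38 of the 49 members. Where a gene had more than 1 start, only the first listed was counted. In *Cyp4f14* the AHR core searched below preceded only the first of 4 starts. For *Cyp11a1* the region counted ends at 57998023, before the M21 gene start at 58006411. The core letters bound by the aryl hydrocarbon receptor (AHR), GCGTG, were searched on both strands because this receptor is the textbook activator of family 1. They were present in 14 of 38 promoters of the family and in 28.2% of 27025 promoters of all genes. They were present in 4 of 7 promoters of fallen genes (*Cyp2ab1*, *Cyp2b10*, *Cyp2w1* and *Cyp4f39*) and in 1 of 3 of risen genes (*Cyp1b1*). On either strand, the TATA box letters TATAAA were present in 7 of 38, against 13.0% of all promoters, and the AP-1 letters TGANTCA in 4 of 38, against 6.87%. In *Cyp2d26* and *Cyp4a32* TATAAA lay only on the strand opposite to the gene. A retinoic acid response element made of a direct repeat spaced by 5 bases was present in 1 of 38, *Cyp26a1*, against 0.0888% of all promoters. A match describes the letters only, and binding was not measured here.

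The promoters of *Cyp4f39* and *Cyp2b19* are shown because these genes had the largest fall and the highest level of the family, that of *Cyp1b1* because the gene rose, that of *Cyp1a1* because it is the textbook AHR target, and that of *Cyp26a1* because of its repeat. Capitals mark the AHR core on either strand, TATAAA and the direct repeat, and *Cyp2b19* has none. They lie at chr17:32452473-32452722 (plus strand), chr7:26756892-26757141 (plus), chr17:79715062-79715311 (minus), chr9:57697363-57697612 (plus) and chr19:37697558-37697807 (plus), in the order shown.
Cyp4f39: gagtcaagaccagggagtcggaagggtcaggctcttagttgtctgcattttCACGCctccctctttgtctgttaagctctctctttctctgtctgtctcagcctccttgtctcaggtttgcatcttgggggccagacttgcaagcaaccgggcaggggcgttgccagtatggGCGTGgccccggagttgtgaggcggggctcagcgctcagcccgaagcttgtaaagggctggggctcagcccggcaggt
Cyp2b19: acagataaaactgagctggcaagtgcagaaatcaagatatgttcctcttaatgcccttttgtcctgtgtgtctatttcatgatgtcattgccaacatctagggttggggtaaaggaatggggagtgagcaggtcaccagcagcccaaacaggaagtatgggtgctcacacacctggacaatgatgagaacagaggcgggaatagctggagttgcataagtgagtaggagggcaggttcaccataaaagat
Cyp1b1: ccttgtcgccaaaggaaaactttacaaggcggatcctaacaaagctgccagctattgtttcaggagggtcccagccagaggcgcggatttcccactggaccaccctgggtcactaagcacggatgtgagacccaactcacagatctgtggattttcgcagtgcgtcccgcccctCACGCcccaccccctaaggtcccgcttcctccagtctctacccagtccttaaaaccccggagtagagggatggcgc
Cyp1a1: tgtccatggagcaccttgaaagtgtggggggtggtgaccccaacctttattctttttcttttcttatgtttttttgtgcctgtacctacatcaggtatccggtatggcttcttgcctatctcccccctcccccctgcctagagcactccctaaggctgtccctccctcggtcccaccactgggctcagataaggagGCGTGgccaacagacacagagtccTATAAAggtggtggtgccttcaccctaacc
Cyp26a1: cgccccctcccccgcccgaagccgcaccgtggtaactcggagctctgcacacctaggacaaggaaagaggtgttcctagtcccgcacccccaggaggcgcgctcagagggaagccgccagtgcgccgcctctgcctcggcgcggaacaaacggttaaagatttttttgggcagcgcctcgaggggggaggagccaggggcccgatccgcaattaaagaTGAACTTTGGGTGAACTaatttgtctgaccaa

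*Cyp4f39* (ENSMUSG00000061126.5, chromosome 17 of mm10, 32452723 to 32493320, plus strand) hydroxylates very long chain fatty acids for the acylceramides of the skin barrier. Its levels were 20.9, 36.7 and 25.1 CPM in WT, against 0.725, 1.01 and 0.719 CPM in KO. Every KO sample lay far below every WT sample, a 33.7-fold lower mean (log2 fold change -5.07, SE 0.238, adjusted p = 2.87e-07). It was the largest change among the 35 P450 genes tested.

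*Cyp2b19* (ENSMUSG00000066704.6, chromosome 7, 26757142 to 26772630, plus strand) is a keratinocyte epoxygenase of arachidonic acid. It had 305, 458 and 347 CPM in WT and 151, 131 and 133 CPM in KO, and the groups did not overlap (2.68-fold lower, log2 fold change -1.42, SE 0.131, adjusted p = 2.18e-05). Its KO level remained the highest of the family per kb.

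*Cyp2b10*, the other member of its subfamily, is known for induction by foreign compounds in liver. It was low in all samples, at 39, 43 and 52 counts in the WT samples against 1, 7 and 6 in KO (0.475 ± 0.0563 and 0.0486 ± 0.0334 CPM, log2 fold change -3.24, SE 0.376, adjusted p = 1.02e-04). The fall exceeded the spread, but 1 KO sample rests on a single count.

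*Cyp2w1* (ENSMUSG00000029541.12, chromosome 5, 139352617 to 139357033, plus strand), known from fetal gut and from tumours, had 8.95, 14.3 and 10.2 CPM in WT and 1.78, 2.49 and 2.46 CPM in KO. All KO values lay below all WT values, and its mean was 4.98-fold lower (log2 fold change -2.31, SE 0.188, adjusted p = 9.36e-06). *Cyp2s1* (ENSMUSG00000040703.11, chromosome 7, 25802475 to 25816913, minus strand), an enzyme of epithelia, had 9.59, 12.1 and 10.4 CPM in WT and 3.50, 2.78 and 2.81 CPM in KO. It too did not overlap, with a 3.53-fold lower mean (log2 fold change -1.82, SE 0.116, adjusted p = 1.99e-06). The antisense gene *Gm26707* overlaps *Cyp2s1* and had 6 to 15 counts per sample.

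The 3 remaining falls were in genes of low level. *Cyp4x1*, of family 4, had 18, 18 and 11 counts per WT replicate, against 3, 1 and 1 per KO replicate (log2 fold change -3.17, 95% interval -4.42 to -1.91, adjusted p = 0.00137). Without KO replicate 1, which held 3 of its 5 KO counts, the log2 fold change was -3.85. *Cyp2ab1* had 0.739, 0.605 and 0.729 CPM in WT and 0.267, 0.325 and 0.349 CPM in KO (log2 fold change -1.14, SE 0.180, adjusted p = 7.18e-04). *Cyp3a13*, a member of the main drug-metabolising family, had 0.708, 0.750 and 0.710 CPM in WT and 0.352, 0.566 and 0.370 CPM in KO (log2 fold change -0.75, SE 0.201, adjusted p = 0.0135). None of these 3 overlapped between genotypes, and *Cyp3a13* was not called without KO replicate 3 (log2 fold change -0.64).

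**Figure D3:**
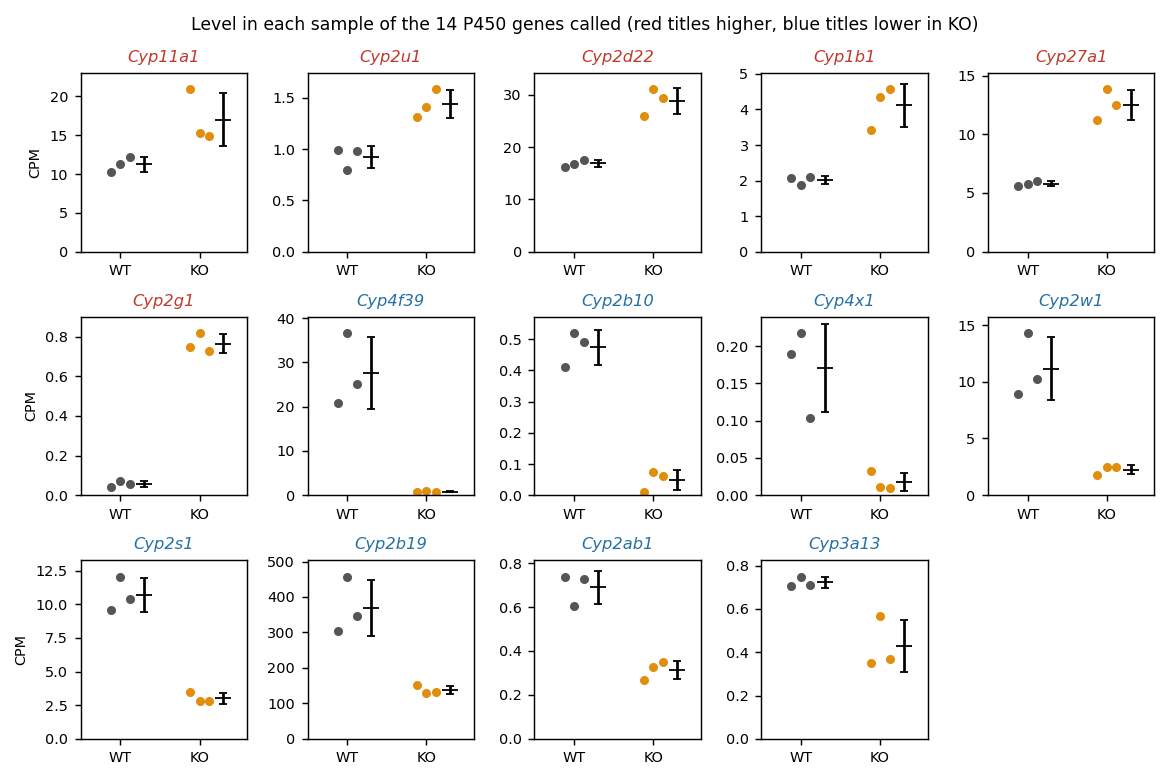
CPM of the 14 P450 genes called, 1 panel per gene with its own axis from 0, with a point for each of the 3 WT (grey) and 3 KO (orange) samples and a bar for the mean ± SD. Titles are red for genes called higher and blue for genes called lower. The WT and KO points overlap in none of the 14, which were picked by the test on these same values. Of all genes tested, 55.9% do not overlap.

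Because epidermal P450 genes were among those that fell, a list of 18 keratinocyte markers was set beside them. All 18 fell, with a median log2 fold change of -4.34, from -10.24 (*Krt77*) to -1.35 (*Trp63*). In summed CPM they were at 19374, 28535 and 21401 in WT and 1087, 1227 and 1180 in KO. Most of the WT sum (mean 23103 CPM) came from *Krt1* (mean 9571 CPM) and *Krt10* (5835 CPM). *Krt2* had no count in KO, at least 29.2-fold lower against a limit of 3 counts. The basal keratins *Krt5* and *Krt14* had -1.96 and -2.59, *Flg* had -1.60 and *Krt10* had -6.20, where *Cyp4f39* had -5.07 and *Cyp2b19* -1.42. In 16 of the 18 markers WT replicate 2 was highest and WT replicate 1 lowest. The same order held in 6 of the 8 fallen P450 genes (all but *Cyp2ab1* and *Cyp4x1*), in 1 of the 6 risen ones (*Cyp2g1*), in 10 of the 35 tested, in 25.5% of all genes tested and in 57.1% of all genes that fell. Of the other lists described below, the order held in 17 of 21 cholesterol synthesis genes, of which 3 fell, and in 0 of 10 adipocyte markers. The part of keratinocyte RNA in the falls was not tested.

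**Figure D4:**
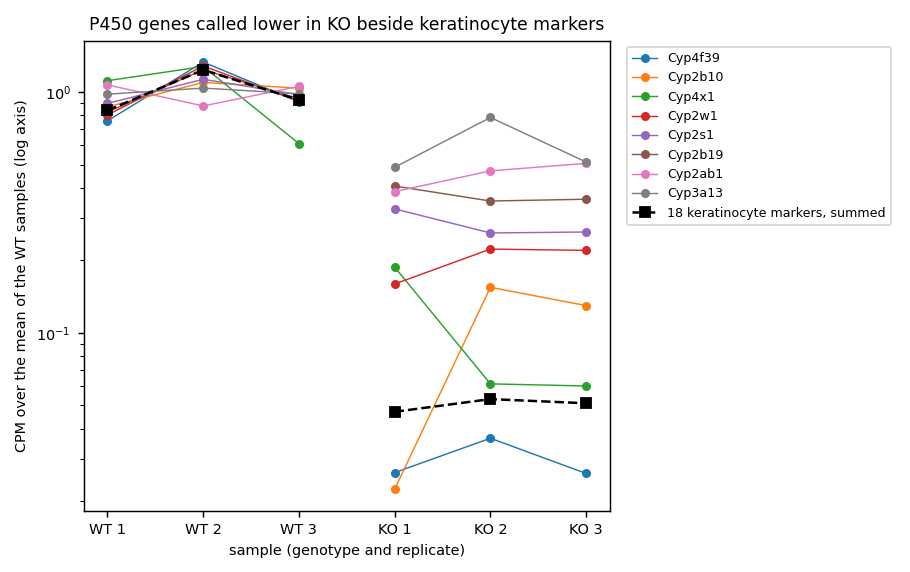
CPM of the 8 P450 genes called lower and of the 18 keratinocyte markers summed (black squares), each divided by its own WT mean, on a log axis by sample. Lines join samples of a genotype for legibility and imply no order. In KO replicates 2 and 3 the marker sum lies between *Cyp4f39* below it and *Cyp4x1* above it, and in KO replicate 1 it lies above *Cyp4f39* and *Cyp2b10*.

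The risen genes were led by *Cyp2g1* (ENSMUSG00000049685.8, chromosome 7, 26808892 to 26821205, plus strand), known as an enzyme of olfactory mucosa. Its counts were 4, 6 and 6 per WT replicate, against 70, 78 and 71 per KO replicate, or 0.0422, 0.0726 and 0.0568 CPM against 0.747, 0.818 and 0.730 CPM. Every KO value lay above every WT value (13.4-fold, log2 fold change 3.73, SE 0.234, adjusted p = 1.82e-06), although its level stayed low.

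*Cyp27a1* (ENSMUSG00000026170.6, chromosome 1, 74713574 to 74737892, plus strand) is the mitochondrial sterol hydroxylase that makes 27-hydroxycholesterol. It had 5.60, 5.79 and 5.99 CPM in WT and 11.2, 13.8 and 12.5 CPM in KO, with no overlap (2.16-fold higher, log2 fold change 1.11, SE 0.0840, adjusted p = 6.02e-06). *Cyp1b1* (ENSMUSG00000024087.4, chromosome 17, 79701537 to 79715061, minus strand), an AHR target that oxidises oestrogens, retinoids and foreign aromatic compounds, had 2.08, 1.88 and 2.09 CPM in WT and 3.43, 4.34 and 4.56 CPM in KO. It rose 2.04-fold (log2 fold change 1.03, SE 0.120, adjusted p = 1.05e-04), beyond the spread in either group.

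*Cyp2d22* (ENSMUSG00000061740.8, chromosome 15, 82370527 to 82380260, minus strand), a mouse relative of the human drug-metabolising CYP2D6, had 16.2, 16.8 and 17.6 CPM in WT and 26.0, 31.0 and 29.3 CPM in KO. Its rise was 1.71-fold (log2 fold change 0.77, SE 0.0701, adjusted p = 2.02e-05), with no overlap. *Cyp2u1*, a fatty acid hydroxylase, had 0.993, 0.798 and 0.985 CPM in WT and 1.31, 1.42 and 1.58 CPM in KO (log2 fold change 0.63, SE 0.137, adjusted p = 0.00469). Its values also did not overlap. With library size alone, without WT replicate 2 or without KO replicate 3, the log2 fold change was 0.54 to 0.56, a rise under the fold limit.

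*Cyp11a1* (ENSMUSG00000032323.13, chromosome 9, 58006411 to 58027023, plus strand) cleaves the cholesterol side chain to pregnenolone, the first step of steroid hormone synthesis. It had 10.3, 11.3 and 12.2 CPM in WT and 20.9, 15.2 and 14.8 CPM in KO, so KO replicate 1 stood above the others (1.51-fold, log2 fold change 0.59, SE 0.128, adjusted p = 0.00440). Without KO replicate 1 the log2 fold change was 0.42 and the call was lost, as it was with limma-voom, library size alone, a replicate block or without WT replicate 1 (0.53 to 0.58). The same-strand noncoding gene *Gm17322* overlaps exons of *Cyp11a1* and went the other way, at 109, 115 and 147 counts for the WT samples and 14, 19 and 11 for the KO samples. Reads shared by the 2 genes cannot be told apart. Of the other steroid hormone genes, *Cyp17a1*, which makes androgen precursors, was at 0.584 ± 0.0555 CPM in WT and 0.552 ± 0.105 in KO (log2 fold change -0.08, 95% interval -0.49 to 0.34), and *Cyp21a1*, the 21-hydroxylase of the adrenal cortex, had 11 counts in WT and 13 in KO and was not tested.

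In the sterol and bile acid group, *Cyp46a1*, the cholesterol 24-hydroxylase, had 5.57, 5.77 and 6.76 CPM in WT and 5.06, 4.20 and 4.30 CPM in KO. Its groups did not overlap and its adjusted p was 0.00872, but the log2 fold change of -0.42 was under the fold limit. *Cyp39a1*, an oxysterol 7-hydroxylase, was at 14.7 ± 0.0386 CPM in WT and 16.2 ± 1.01 in KO (log2 fold change 0.14, 95% interval -0.0010 to 0.27). *Cyp7b1*, which hydroxylates oxysterols, was at 4.33 ± 0.624 and 4.56 ± 0.256 CPM (0.07, -0.17 to 0.31). *Cyp8b1*, the sterol 12-hydroxylase of bile acid synthesis, was at 0.182 ± 0.0738 and 0.276 ± 0.0509 CPM (0.57, -0.15 to 1.28), an interval that spans a fold change of 2. Only *Cyp27a1* of this group was called.

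The retinoic acid hydroxylases *Cyp26a1*, *Cyp26b1* and *Cyp26c1* degrade retinoic acid. *Cyp26b1*, second in the family per kb over all samples, had 64.6, 84.3 and 71.2 CPM in WT and 110, 89.5 and 93.8 CPM in KO. All KO values lay above all WT values, and its log2 fold change of 0.41 (SE 0.0999, adjusted p = 0.00817) had a 95% interval of 0.19 to 0.64 that crosses the fold limit. *Cyp26a1* had 0.676, 0.242 and 0.502 CPM in WT and 0.384, 0.451 and 0.370 CPM in KO, with overlap and a log2 fold change of -0.25 (95% interval -0.96 to 0.45). *Cyp26c1* had 15 counts in WT and 12 in KO and was not tested.

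The vitamin D genes are *Cyp2r1*, which makes 25-hydroxyvitamin D, *Cyp27b1*, which activates it, and *Cyp24a1*, which degrades it. *Cyp2r1* had 1.003, 1.35 and 0.966 CPM in WT and 1.07, 0.944 and 0.945 CPM in KO (log2 fold change -0.16, 95% interval -0.52 to 0.20). *Cyp27b1* had 1.28, 0.762 and 0.975 CPM in WT and 0.928, 0.755 and 0.873 CPM in KO (log2 fold change -0.24, 95% interval -0.68 to 0.19). Both overlapped between genotypes. *Cyp24a1* had 0, 1 and 0 counts in the WT samples against 1, 4 and 11 in KO, of which KO replicate 3 held most, and was not tested.

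*Cyp1a1*, the classical AHR-induced enzyme, had 2, 1 and 3 counts per WT replicate, against 11, 12 and 6 per KO replicate, and was removed by the filter on low counts. With no filter it was higher at an adjusted p of 0.00852 (log2 fold change 2.19), and with DESeq2 at 0.0398 (2.28). *Cyp2j12* had 1, 0 and 0 counts per WT replicate, against 3, 5 and 6 per KO replicate, and like *Cyp24a1* it was higher with no filter (adjusted p = 0.0226 and 0.0255). These are counts near the limit of detection. The 14 members that were not tested are *Cyp1a1*, *Cyp21a1*, *Cyp24a1*, *Cyp26c1*, *Cyp2c23*, *Cyp2c55*, *Cyp2e1*, *Cyp2j8*, *Cyp2j12*, *Cyp2j13*, *Cyp4a32*, *Cyp4f14*, *Cyp4f15* and *Cyp4f37*.

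Several uncalled genes of families 2 and 4 passed the adjusted p alone, under the fold limit. *Cyp4f13*, a fatty acid hydroxylase, was at 7.09 ± 0.0648 CPM in WT and 9.67 ± 0.333 in KO (log2 fold change 0.45, adjusted p = 2.52e-04). *Cyp2j6*, an epoxygenase, was at 11.4 ± 0.561 and 14.5 ± 0.617 CPM (0.34, adjusted p = 0.00174), and *Cyp2j9*, of the same subfamily and chosen after its values were seen, was at 2.39 and 3.52 CPM (0.56, adjusted p = 0.00173). *Cyp4f17* was lower, at 9.26 and 8.05 CPM (-0.20, adjusted p = 0.0280), and *Cyp4f16* was at 10.2 and 10.6 CPM (0.05, 95% interval -0.08 to 0.18). *Cyp4b1*, *Cyp4v3*, *Cyp4f18*, *Cyp2f2*, *Cyp2t4*, *Cyp2d26* and *Cyp20a1* had log2 fold changes from -0.19 to 0.29, of which *Cyp4b1* (0.29) passed the adjusted p at 0.0207.

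Many P450 genes lie in clusters, and calls differed between neighbours. On chromosome 7, within 1356 kb, *Cyp2s1* (-1.82), *Cyp2b10* (-3.24) and *Cyp2b19* (-1.42) fell and *Cyp2g1*, 36.3 kb beyond *Cyp2b19*, rose (3.73), while *Cyp2f2* (-0.01) and *Cyp2t4* (-0.03) were not called. On chromosome 17, within 495 kb, *Cyp4f39* (-5.07) fell, its neighbour *Cyp4f17*, 12.7 kb away, had -0.20, *Cyp4f16* 0.05 and *Cyp4f13* 0.45, none of them called. On chromosome 4, within 564 kb, *Cyp2j6* and *Cyp2j9* were not called. Windows of 75 bases shared with other genes made up 0.733% of *Cyp2b19*, 2.76% of *Cyp2b10* and *Cyp2g1* each, and 0% of *Cyp4f39*, *Cyp2w1* and *Cyp2s1*. They made up 10.1% of *Cyp4f16*, 11.4% of *Cyp4f37*, 11.5% of *Cyp21a1* and 28.0% of *Cyp4a32*, whose counts are therefore uncertain.

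**Figure D5:**
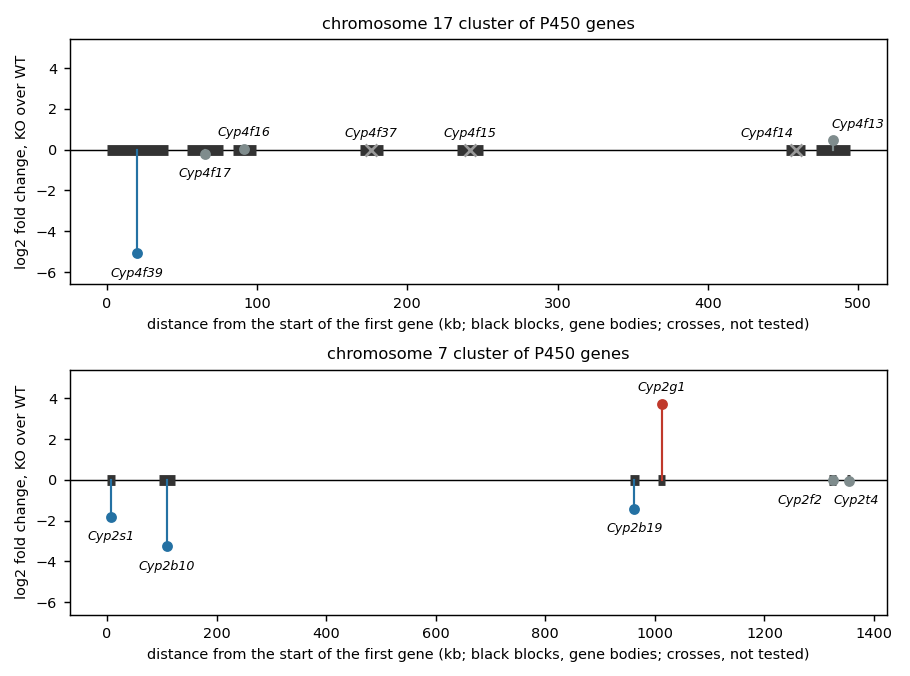
Log2 fold change (KO over WT) of P450 genes in the clusters on chromosomes 17 and 7, against distance in kb from the start of the first gene, with black blocks for gene bodies, colours for calls and crosses for genes not tested. On chromosome 17 only *Cyp4f39* is called, and on chromosome 7 *Cyp2s1*, *Cyp2b10* and *Cyp2b19* are called lower and *Cyp2g1* higher.

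The genes that work with the P450 enzymes were described by lists, each read beside the 8.31% of all genes that rose and the 8.39% that fell. Of 14 electron donor and haem genes, 0 rose and 2 fell, *Cyb5r4* (-0.64), a cytochrome b5 reductase, and *Hmox1* (-0.92), which degrades haem, with a median of -0.03. *Por* was at 68.4 ± 7.67 CPM in WT and 56.7 ± 1.76 in KO (log2 fold change -0.27, adjusted p = 0.0134) and was not called. *Fdx1* had 0.21 and *Fdxr* -0.02.

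Of 10 genes of the AHR axis, 1 rose and 2 fell, with a median of 0.04. *Ahrr*, the AHR repressor, rose from 3.30 ± 0.0992 to 6.21 ± 0.263 CPM (0.91, adjusted p = 8.36e-06), and *Ugt1a6a* (-1.17) and *Gsta1* (-4.09), both conjugating enzymes, fell. *Ahr* (0.02) and *Arnt* (0.06) were not called. Of 17 nuclear receptor genes, 12 were tested, with a median of -0.05. Those called included *Nr1h3* (1.17), *Ppara* (1.13) and *Pparg* (0.95), which rose, and *Rora* (-1.11), which fell. *Nr1i3*, the receptor best known for inducing *Cyp2b10* in liver, was at 0.130 CPM in WT and 0.102 in KO and was not called (-0.36), and *Nr1i2* was not tested.

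Of 18 genes of the retinoic acid axis, 1 rose and 4 fell, with a median of 0.01. *Lrat* (0.77) rose, and *Crabp1* (-0.91) and *Crabp2* (-1.31), which carry retinoic acid in the cell, *Fabp5* (-2.36) and *Bco1* (-1.19) fell. *Aldh1a2*, which makes retinoic acid, had 0.33 (adjusted p = 0.00220) and was not called. Of 4 vitamin D axis genes tested, *Dhcr7* fell (-0.95) and 0 rose, and *Vdr*, the vitamin D receptor, went from 19.8 to 28.8 CPM (0.54) without being called. Of 15 steroid hormone enzymes tested, *Hsd11b2* rose (0.96) and *Hsd17b2* (-2.82), *Hsd17b7* (-0.59) and *Srd5a1* (-1.37) fell.

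Of 21 cholesterol synthesis genes, 0 rose and 3 fell, *Mvk* (-0.60), *Hsd17b7* and *Dhcr7*, with a median of -0.32. On the adjusted p alone, 16 of the 21 were lower and 0 higher, against 45.0% of all genes in either direction. Among the 21 is *Cyp51*, a P450 that the symbol pattern leaves out, at 96.1 ± 3.79 CPM in WT and 77.9 ± 1.95 in KO (log2 fold change -0.30, adjusted p = 2.88e-04), not called. Of 16 eicosanoid genes, 2 rose, *Alox5* (0.76) and *Ltc4s* (1.27), and 7 fell, with a median of 0.02. Those that fell were *Ptgs1* (-1.43), *Ptges* (-0.63), *Alox12* (-2.05), *Alox12b* (-4.25), *Alox12e* (-1.30), *Aloxe3* (-2.48) and *Ephx3* (-4.34). *Alox12b*, *Aloxe3* and *Ephx3* are known from the skin barrier, as is *Cyp4f39*. *Ptgis* (0.28) and *Tbxas1* (0.30), P450 enzymes with other symbols, were not called.

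Markers of other cell types moved with genotype too, and their part in the P450 values was not tested. Liver is the main organ of P450 expression, and of 12 hepatocyte markers 7 were tested and 1, *Trf*, rose, from 20.9 ± 2.75 to 76.0 ± 7.78 CPM. The sum of all 12 was 19.4 to 40.9 CPM in WT and 74.6 to 85.7 in KO, of which the 11 other than *Trf* made up 1.52 to 17.6 CPM in WT, highest in replicate 1, and 3.28 to 7.40 in KO. The median log2 fold change was -0.31, with *Alb* at 0.438 ± 0.141 and 0.648 ± 0.173 CPM and *Afp* at 5.10 ± 5.98 and 2.198 ± 1.13 CPM, neither called. Adipocyte markers rose in 9 of 10 (summed CPM 557 to 683 in WT and 1618 to 1899 in KO), macrophage markers in 7 of 10 (331 to 351 and 548 to 607) and muscle markers in 8 of 12 (17926 to 20127 and 38543 to 47492). Endothelial markers rose in 1 of 10, and of 10 cartilage markers 6 fell (1032 to 1219 and 924 to 999). Of 10 fibroblast markers 0 were called (44626 to 47372 and 53639 to 55450).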

How the data were processed

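RNA-seq of leg muscle at embryonic day 18.5 from 3 WT and 3 KO fetuses was used. Per the labels, the authors processed reads with Trim Galore 0.6.6, HISAT2 2.2.1 and featureCounts 2.0.1 on mm10. They deposited raw counts for each gene, without normalization. The annotation, the counting unit (reads or pairs) and the use of strand are not given in the sources used here, so overlapping genes cannot be told apart. Symbols were found in GENCODE M21 for 55227 gene IDs and not for 1035.

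In R 4.3.3, edgeR 4.0.16 was run with filterByExpr, TMM factors and the quasi-likelihood test on genotype, with Benjamini-Hochberg adjustment over 22071 genes, and was tested on simulated data. The study's methods use DESeq2, here an alternative (1.42.0), beside limma-voom 3.58.1, other scalings, filters, thresholds, a replicate block and leaving out samples. Members, lists and named genes were chosen with earlier results of these data known. Named were all called members, all tested members of the smaller role groups, the 5 of families 2 and 4 and of *Cyp20a1*'s group with the highest level per kb, and called partner genes, except for 1 that is not reported here. Same-numbered WT and KO samples deviated with correlations of -0.20, -0.134 and 0.047, and were not treated as paired. Motifs were searched in RefSeq promoters of GRCm38.p6.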

Additional observations from a re-analysis of the deposited data

How the results depend on the processing

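With a fold change over 2 there were 3 rises and 7 falls among P450 genes (774 rises and 1269 falls among all genes). With no fold limit there were 11 and 10 (4838 rises and 5098 falls among all genes). With no filter on counts there were 9 rises and 8 falls among P450 genes, and with at least 10 counts in every sample 5 and 6. The other scalings and tools gave 4 to 7 rises and 8 falls. Leaving out each sample in turn gave 6 to 8 rises and 7 to 8 falls among P450 genes, 1660 to 1953 rises and 1691 to 1924 falls among all genes, and a P450 median of 0.03 to 0.10. With the replicate block there were 5 rises and 8 falls among P450 genes and 1744 and 1777 among all genes. *Cyp11a1* lost its call there (0.58), and the block changed no other P450 call. With the fold limit of 1.5, 11 of the 14 called P450 genes kept their call under every other scaling, tool, filter, block or left-out sample that gave them a value. *Cyp2u1*, *Cyp3a13* and *Cyp11a1* did not. The filter of at least 10 counts in every sample removed *Cyp2g1*, *Cyp2b10* and *Cyp4x1*, so their calls could not be checked under it. *Cyp2j9* was called with upper-quartile factors (0.63), without WT replicate 3 and without KO replicate 1. Only uncalled genes reversed in sign, and all stayed uncalled. With upper-quartile factors *Cyp2f2* was at 0.054 and *Cyp2t4* at 0.032, and with library size only *Cyp4f16* was at -0.016 and *Cyp4f18* at -0.033. When each sample was left out in turn, *Cyp2f2* ran from -0.11 to 0.11, *Cyp2t4* from -0.27 to 0.13, *Cyp4f18* from -0.13 to 0.35, *Cyp26a1* from -0.55 to 0.073, *Cyp7b1* from -0.025 to 0.18, *Cyp2d26* from -0.61 to 0.072 and *Cyp17a1* from -0.24 to 0.032. Among partner genes, *Cyb5r4* lost its call with upper-quartile factors (log2 fold change of Cyb5r4 -0.57) and without KO replicate 1 (-0.58). *Bco1* lost it without WT replicate 3 (log2 fold change of Bco1 -0.94) or KO replicate 3 (-1.01), and *Mvk*, *Hsd17b7* and *Ptges* lost it with upper-quartile factors and without WT replicate 2, the first 2 also without KO replicate 2 or 3 (log2 fold change of Mvk, Hsd17b7 and Ptges at -0.52 to -0.58). The cause was not tested. Depth limits the 14 members that were not tested.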
